A study of Arabidopsis thaliana with 10 samples.

Results

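The data compare whole Arabidopsis thaliana seedlings that carry a T-DNA insertion in IBH1 with the wild type Col, by RNA sequencing, across all genes that the authors could test. Of 34047 genes listed in the authors' deposited table for this comparison, 20967 had the test status OK and form the set described here. The ibh1 mutant is the homozygous line ibh1 (SALK 049177), a single insertion allele, and where in the gene its insertion lies is not given in the sources used here. Values of 3 other lines are set beside it where they help to read a gene: plants homozygous for 35Spro:IBH1-GFP (the IBH1 overexpressor) or 35Spro:IBL1-GFP (the IBL1 overexpressor), in which the constitutive 35S promoter drives a GFP fusion, and the homozygous insertion line ibl1 (SALK 119457). Col is untransformed. All 5 genotypes are of the Col-0 ecotype, were grown without treatment on agar at 22 °C under a 16 h photoperiod, and were harvested whole at 10 days.

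Each genotype had 2 libraries, which the authors' table joins into 1 FPKM value per genotype (a count of sequenced fragments scaled to transcript length and to the yield of the library). No spread between libraries can therefore be shown and the depth is unknown. The series text calls the libraries biological replicates without saying how they were grown apart. A change is given as the log2 of ibh1 over Col with the standard error that follows from the authors' statistic, and a gene is called where the authors' q-value lies below 0.05. By that rule 707 of the 20967 tested genes were called, which is 3.37% of them. The 280 genes called higher in ibh1 are 1.34% and the 427 genes called lower are 2.04%. These shares are the background for every count of list members given below. All lists and their members were chosen with earlier results of these data known, so their counts and medians are descriptions only.

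IBH1 is a small atypical basic helix-loop-helix (bHLH) protein without a DNA-binding basic region. It pairs with growth-promoting bHLH proteins and keeps them from DNA, while the PRE proteins, themselves unable to bind DNA, titrate IBH1 away. Brassinosteroid, the steroid hormone of cell elongation, lowers IBH1 and raises PRE expression, so the balance between these proteins sets how far seedling organs elongate. IBL1 is the closest homologue of IBH1.

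The promoters of 5 genes to which the results below return are shown first. PR2 and PCR1, from the list of salicylate output genes, were among the largest falls in ibh1. The metal-uptake gene IRT3 rose most, and NAS4, a nicotianamine synthase gene, rose with it. LHCB1.4, an antenna protein gene, fell. Each promoter is the 250 bases before the gene start of the RefSeq annotation on the TAIR10.1 assembly, on the strand of the gene. Those starts differ from the ends of the authors' gene models. Capitals mark matches, on either strand, to the G-box CACGTG, the W-box TTGACC or TTGACT, the TGA element TGACG, the I-box GATAAG, the telo-box AAACCCTA, the site II element TGGGCC and the zinc-deficiency element core TGTCGACA. The last was added to the search after the rise of IRT3 had been seen.
PR2 (chr3:21189968-21190217, minus strand): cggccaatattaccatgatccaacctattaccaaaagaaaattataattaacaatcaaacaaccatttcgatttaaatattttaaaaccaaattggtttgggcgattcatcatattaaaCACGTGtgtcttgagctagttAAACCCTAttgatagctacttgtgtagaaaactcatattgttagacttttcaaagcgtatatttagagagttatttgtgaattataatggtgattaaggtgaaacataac
PCR1 (chr1:5133861-5134110, minus strand): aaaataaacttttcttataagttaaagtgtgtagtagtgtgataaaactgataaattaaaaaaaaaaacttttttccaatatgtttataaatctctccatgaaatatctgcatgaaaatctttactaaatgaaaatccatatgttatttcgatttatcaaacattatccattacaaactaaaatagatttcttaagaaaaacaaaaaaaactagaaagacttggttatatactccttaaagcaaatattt
IRT3 (chr1:22447300-22447549, minus strand): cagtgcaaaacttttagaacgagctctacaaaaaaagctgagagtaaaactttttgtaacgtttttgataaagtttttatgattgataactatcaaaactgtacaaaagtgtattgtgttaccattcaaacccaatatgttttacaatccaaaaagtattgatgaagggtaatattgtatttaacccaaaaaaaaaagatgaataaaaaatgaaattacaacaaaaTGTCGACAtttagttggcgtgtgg
NAS4 (chr1:21136585-21136834, plus strand): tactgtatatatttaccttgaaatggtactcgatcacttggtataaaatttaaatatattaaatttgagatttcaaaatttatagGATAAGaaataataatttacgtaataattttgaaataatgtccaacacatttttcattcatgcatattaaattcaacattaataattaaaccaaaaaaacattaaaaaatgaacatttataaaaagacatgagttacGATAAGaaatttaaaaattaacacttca
LHCB1.4 (chr2:14524357-14524606, plus strand): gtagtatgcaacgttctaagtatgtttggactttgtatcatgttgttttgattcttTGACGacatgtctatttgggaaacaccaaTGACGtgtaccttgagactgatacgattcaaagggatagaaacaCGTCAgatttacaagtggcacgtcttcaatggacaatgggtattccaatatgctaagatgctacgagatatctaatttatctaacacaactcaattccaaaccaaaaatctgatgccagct

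In windows of 300 bases, 250 before and 50 after the gene start, the TGTCGACA core stood in 90 of 27443 protein-coding promoters (0.328%), and in 3 of the 12 promoters (25.0%) of a list of zinc-deficiency genes. IRT3 is among these 3, and the list was put together after its rise had been seen, so the 25.0% is a description only. In IRT3 the match began at position -24 from the gene start. PR2 held a G-box at -131, a telo-box at -110 and a W-box at 38, after the gene start, and LHCB1.4 held TGA elements at -194, -165 and -121. None of the 7 elements matched in the printed stretch of PCR1. The W-box, a binding element of WRKY factors, matched in 104 of 276 promoters of genes called higher (37.7%), in 101 of 406 promoters of genes called lower (24.9%) and in 32.4% of all promoters. The I-box, found in light-regulated promoters, matched in 93 of the 406 promoters of genes called lower (22.9%), in 44 of the 276 of genes called higher (15.9%) and in 14.6% of all. Ribosomal protein promoters carried their usual elements, with a telo-box in 80 of 158 cytosolic members (50.6%) against 6.22% of all promoters and a site II element in 106 (67.1%) against 15.5%. Each element was counted on its own, and neighbouring matches of different elements may share bases. These matches describe letters in the windows and were not tested.

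The ibh1 mutant kept part of its IBH1 transcript. IBH1 (AT2G43060) is a gene of 1 exon on the plus strand of chromosome 2, from 17909185 to 17910082 on TAIR10, and encodes 156 residues in the RefSeq annotation. It stood at 6.91 FPKM in ibh1 against 22.2 FPKM in Col, so 31.2% of the Col level remained (log2 -1.68 ± 0.33, authors' q 5.63e-05). The values of the other lines were 5148 FPKM in the IBH1 overexpressor, 20.3 FPKM in the IBL1 overexpressor and 17.4 FPKM in the ibl1 mutant. The ibh1 value is thus the lowest of the 5 genotypes. Fragments from any part of the locus count toward this value, so it does not show whether a full transcript remained. IBL1 (AT4G30410, chromosome 4, 14871109 to 14872176, 1 exon, 180 residues) was at 7.27 FPKM in ibh1 and 7.70 FPKM in Col and was not called (log2 -0.08 ± 0.39, authors' q 0.951).

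The genes next to the insertion were looked at one by one, since a T-DNA can alter its surroundings. Of the 10 annotated genes on either side of IBH1, a span of 55.0 kb, 15 were tested and 1 was called. That gene was PIF4 (AT2G43010, chromosome 2, 17886427 to 17889050, 6 exons), the phytochrome-interacting bHLH factor that promotes elongation in warmth and shade, whose start lies 22.8 kb before that of IBH1. PIF4 was at 16.5 FPKM in ibh1 against 33.2 FPKM in Col (log2 -1.004 ± 0.16, authors' q 5.50e-08). It was also below Col in the lines without an insertion there, with 9.74 FPKM in the IBH1 overexpressor, 5.53 FPKM in the IBL1 overexpressor and 10.6 FPKM in the ibl1 mutant, and all 4 lines share the same Col libraries. The direct neighbours were not called. SPPL3, which starts 1.70 kb after the start of IBH1, had 27.9 FPKM in ibh1 and 24.1 FPKM in Col (log2 0.21 ± 0.15, authors' q 0.530). ATPMEPCRD on the other side had 3.34 FPKM in ibh1 and 1.55 FPKM in Col (log2 1.11 ± 0.48, authors' q 0.226). NAC042, between PIF4 and the edge of the span, had 1.52 FPKM in ibh1 and 4.06 FPKM in Col with a wide error (log2 -1.42 ± 0.69, authors' q 0.298).

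**Figure D1:**
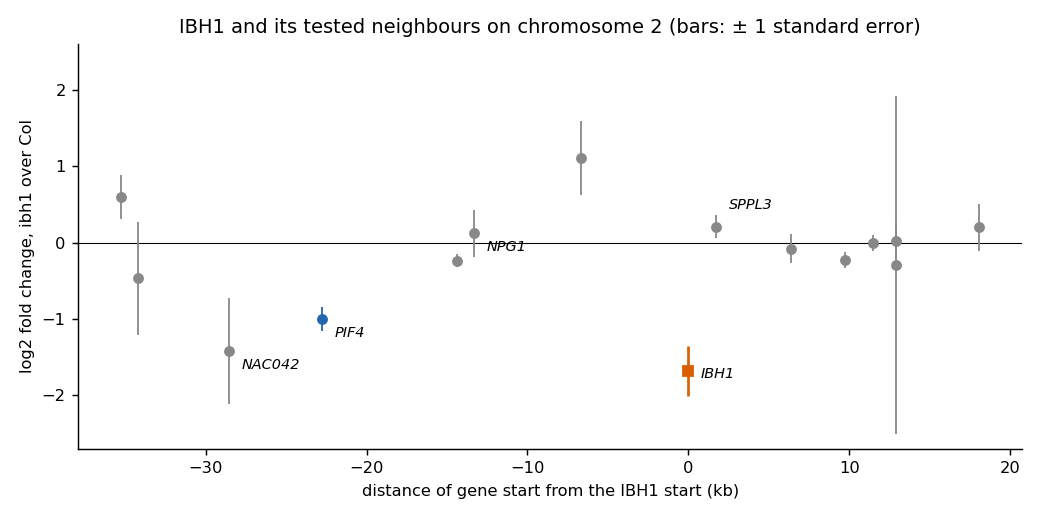
Log2 fold change of ibh1 over Col with its standard error (vertical axis) against the distance of each tested gene's start from the start of IBH1 in kb (horizontal axis), for IBH1 (orange square) and its tested neighbours. PIF4 (blue, log2 -1.004) is the called neighbour, and the grey genes were not called.

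Most changes were small. The median size of a called change was 1.42-fold (0.50 on the log2 scale), and 430 of the 707 called genes changed by less than 1.5-fold. At least 2-fold was reached by 35 genes called higher and 56 called lower. The split depended on the level of the gene. Among genes with a mean of 1 to 10 FPKM, 58 were called higher and 38 lower of 8582, and 42.2% had a log2 below zero. Among the 1592 genes at 100 FPKM or more, 44 were called higher and 220 lower, 16.6% in all, and 71.2% had a log2 below zero with a median of -0.11. The abundant transcripts of ibh1 therefore lay lower than in Col on the authors' scale as a class, and the lists of abundant genes below are read beside that. The median log2 over genes with at least 1 FPKM in both groups was 0.01.

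**Figure D2:**
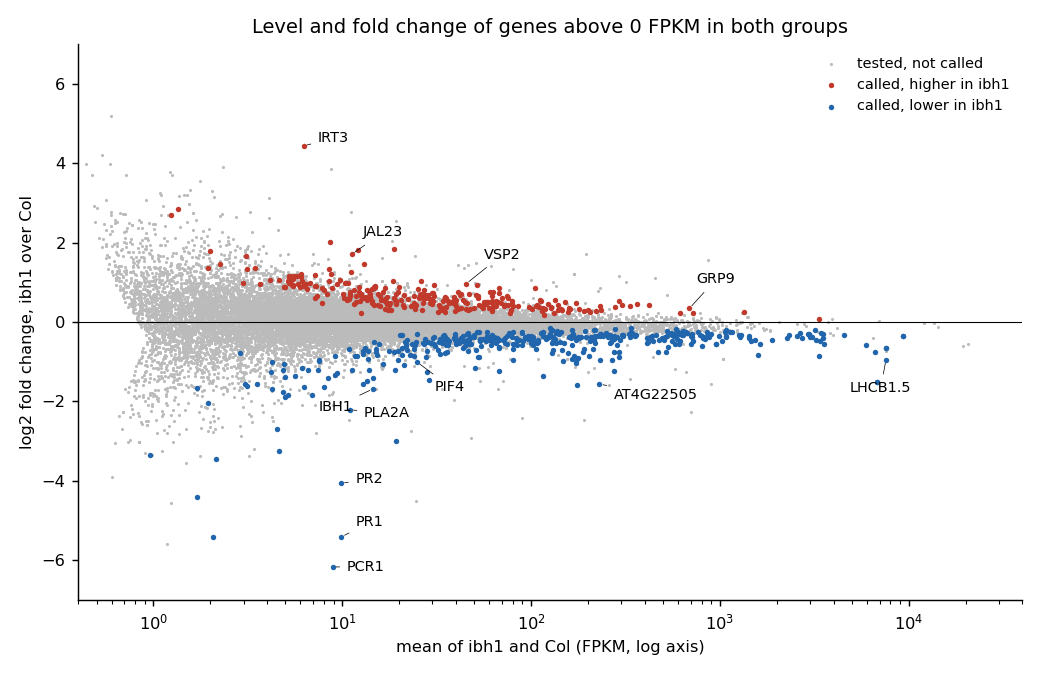
Log2 fold change of ibh1 over Col (vertical axis) against the mean FPKM of both groups (horizontal log axis) for 20482 tested genes with a value above 0 in both, with genes called higher and lower in colour. The called genes at low level have large changes, such as PR1 (-5.41) and IRT3 (4.44), and those above 100 FPKM lie mostly below zero.

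**Figure D3:**
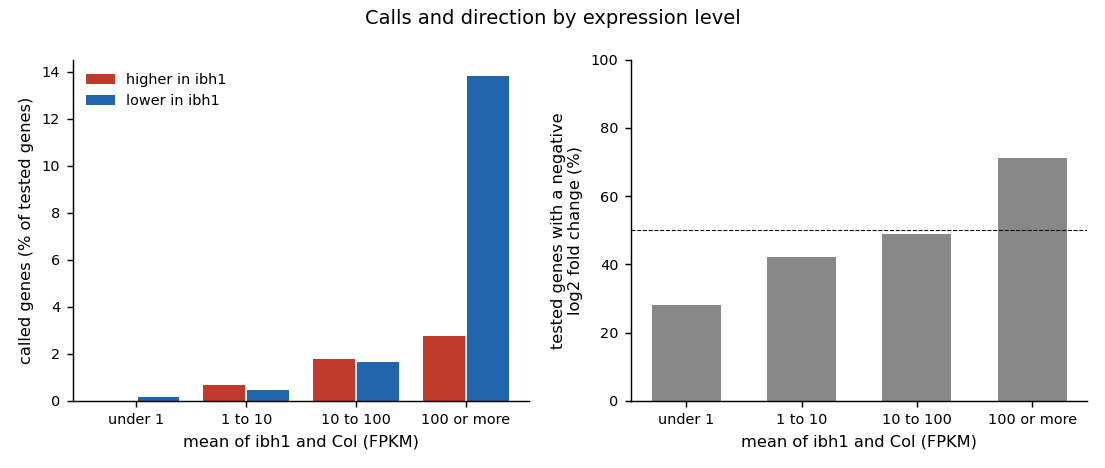
Left, the percent of tested genes called higher or lower in ibh1 by bin of mean FPKM; right, the percent of tested genes with a log2 of ibh1 over Col below zero, with a dashed line at 50%. The share below zero is 28.1% under 1 FPKM, 42.2% at 1 to 10 FPKM, 48.96% at 10 to 100 FPKM and 71.2% at 100 FPKM or more.

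Of the list of salicylate output genes, 3 fell to a few percent of their Col level. The salicylate response is the arm of immunity against biotrophic pathogens in which salicylic acid, through its receptor NPR1 and TGA factors, turns on secreted antimicrobial proteins. PR1 (AT2G14610, chromosome 2, 6241704 to 6242463), the standard marker of this response, was at 0.454 FPKM in ibh1 against 19.3 FPKM in Col (log2 -5.41 ± 1.07, authors' q 8.53e-05). PR2 (AT3G57260, chromosome 3, 21188517 to 21189859), a beta-1,3-glucanase, was at 1.12 FPKM in ibh1 against 18.6 FPKM in Col (log2 -4.06 ± 0.57, authors' q 4.71e-10). PCR1 (AT1G14880, chromosome 1, 5132535 to 5133716), a small membrane protein of cadmium resistance, was at 0.244 FPKM in ibh1 against 17.5 FPKM in Col (log2 -6.17 ± 1.25, authors' q 0.000144). Transcripts of these 3 genes in ibh1 were thus at 2.35%, 6.00% and 1.39% of the Col level. PR5, a thaumatin-like protein, fell less, to 19.4 FPKM in ibh1 against 35.97 FPKM in Col (log2 -0.89 ± 0.21, authors' q 0.00250). PCC1, a small pathogen- and clock-controlled protein, fell to 61.5 FPKM in ibh1 against 99.3 FPKM in Col (log2 -0.69 ± 0.19, authors' q 0.0133). Of 17 salicylate output genes, all tested, these 5 fell and 0 rose. The median log2 of the list was -0.62. Members of the list were chosen with earlier results of these data known, so its count and median are descriptions only. PCR1 stands in the list by that choice, while its annotation names cadmium resistance. Among genes with at least 1 FPKM in both groups 3 of these calls remain, since PR1 and PCR1 lie below that level in ibh1.

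The other 12 outputs and most genes that make or sense salicylate were not called. WRKY70 had 6.56 FPKM in ibh1 and 11.05 FPKM in Col (log2 -0.75 ± 0.33, authors' q 0.228), and LURP1 had 12.7 FPKM in ibh1 and 9.54 FPKM in Col (log2 0.41 ± 0.33, authors' q 0.600). Among 15 tested genes of salicylate synthesis and regulation the one call was a rise of TGA1, a bZIP factor that binds TGACG, with 52.7 FPKM in ibh1 and 41.8 FPKM in Col (log2 0.33 ± 0.08, authors' q 0.00201). The isochorismate synthase gene ICS1 had 7.82 FPKM in ibh1 and 7.61 FPKM in Col, the receptor gene NPR1 12.03 FPKM in ibh1 and 11.8 FPKM in Col, and the immune regulator EDS1 13.5 FPKM in ibh1 and 11.8 FPKM in Col, none of them called. Of 17 tested genes of pattern-triggered immunity, the response to conserved microbial molecules, 0 were called by the authors' q. PEN3 had a log2 of 0.11 ± 0.09 and MPK3 of 0.13 ± 0.15. The 3 tested camalexin genes were not called (PAD3 -0.49 ± 0.26).

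Outside the salicylate list, 6 further genes were picked, after their values were seen, from those with the largest falls or under 1 FPKM in a group. They form no list and were not tested together. PLA2A, a patatin-like phospholipase induced by pathogens, was at 3.89 FPKM in ibh1 against 18.0 FPKM in Col (log2 -2.21 ± 0.31, authors' q 7.81e-10). The serine carboxypeptidase-like gene scpl23 was at 0.0948 FPKM in ibh1 against 4.02 FPKM in Col (log2 -5.41 ± 1.64, authors' q 0.0342). AIG1, a nucleotide-binding protein gene first found as induced by a bacterial effector, was at 0.152 FPKM in ibh1 against 3.24 FPKM in Col (log2 -4.42 ± 1.14, authors' q 0.00742). An aspartyl protease gene, AT5G10760, was at 0.766 FPKM in ibh1 against 3.14 FPKM in Col (log2 -2.03 ± 0.62, authors' q 0.0344). The defensin-like gene AT3G59930 was at 3.05 FPKM in ibh1 against 10.8 FPKM in Col (log2 -1.83 ± 0.57, authors' q 0.0464). ZAT10, a zinc-finger repressor of rapid stress responses, was at 3.91 FPKM in ibh1 against 12.2 FPKM in Col (log2 -1.64 ± 0.42, authors' q 0.00655). It was the 1 call among 10 touch and rapid wound genes. Both scpl23 and AT3G59930 were also called lower than Col in the other lines, which share the Col libraries. For scpl23 these had 0.571 FPKM in the IBH1 overexpressor, 0.398 FPKM in the IBL1 overexpressor and 0.239 FPKM in the ibl1 mutant. For AT3G59930 they had 2.42, 3.07 and 2.16 FPKM in the same order. PLA2A, AIG1, AT5G10760 and ZAT10 were not called lower in any of those lines.

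Across genotypes, ibh1 had the lowest value of the 5 for PR1, PR2, PCR1 and PCC1, but not for PR5. PR1 was at 0.454 FPKM in ibh1, 45.5 FPKM in the IBH1 overexpressor, 115 FPKM in the IBL1 overexpressor, 193 FPKM in the ibl1 mutant and 19.3 FPKM in Col. PR2 was at 1.12 FPKM in ibh1, 37.3 FPKM in the IBH1 overexpressor, 39.0 FPKM in the IBL1 overexpressor, 18.4 FPKM in the ibl1 mutant and 18.6 FPKM in Col. The ibl1 value of PR2 is close to Col, while that of PR1 is the highest of the series. PCR1 was at 0.244 FPKM in ibh1, 25.5 FPKM in the IBH1 overexpressor, 29.5 FPKM in the IBL1 overexpressor, 31.0 FPKM in the ibl1 mutant and 17.5 FPKM in Col. PR5 was at 19.4 FPKM in ibh1, 26.6 FPKM in the IBH1 overexpressor, 45.5 FPKM in the IBL1 overexpressor, 17.6 FPKM in the ibl1 mutant and 35.97 FPKM in Col. PR5 was thus lowest in the ibl1 mutant, where it also fell against Col (log2 -1.03 ± 0.22, authors' q 0.000298). PCC1 was at 61.5 FPKM in ibh1, 86.3 FPKM in the IBH1 overexpressor, 170 FPKM in the IBL1 overexpressor, 201 FPKM in the ibl1 mutant and 99.3 FPKM in Col. These values come without a spread between libraries, and each comparison uses the same Col libraries.

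**Figure D4:**
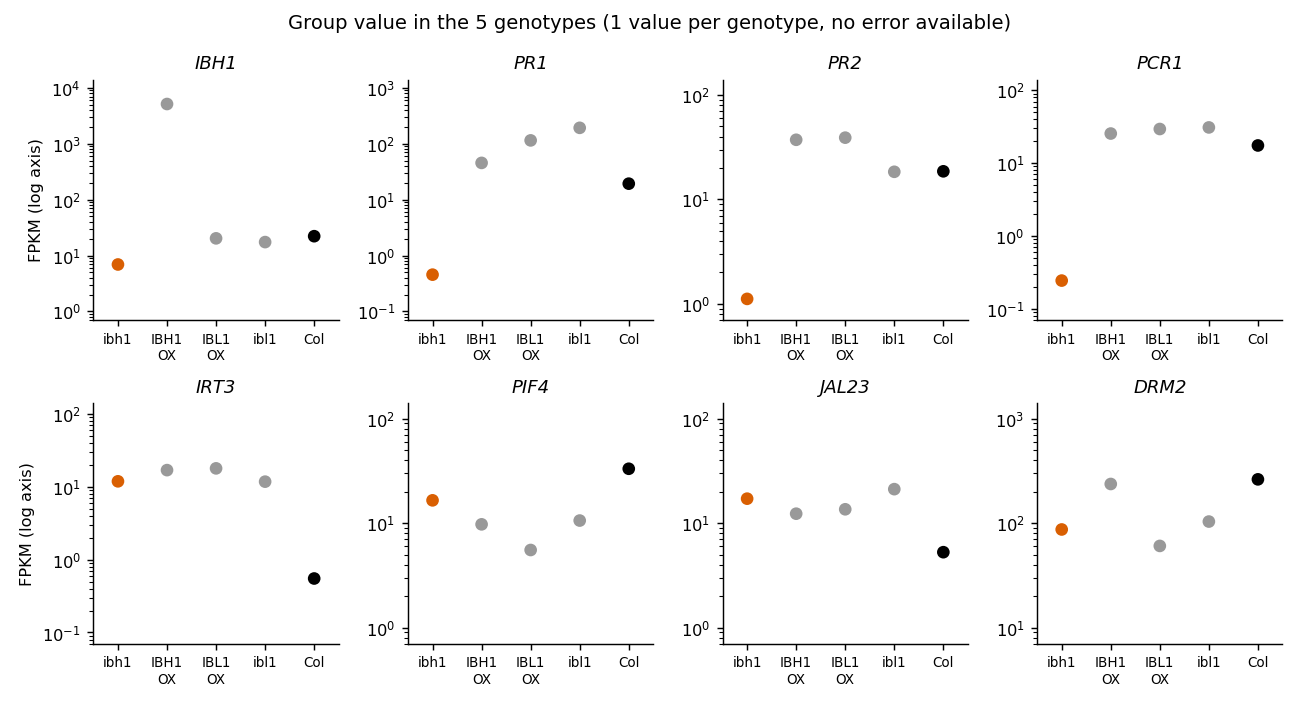
FPKM (vertical log axis) of IBH1, PR1, PR2, PCR1, IRT3, PIF4, JAL23 and DRM2 in the ibh1 mutant, the IBH1 overexpressor, the IBL1 overexpressor, the ibl1 mutant and Col, 1 authors' value per genotype. PR1, PR2 and PCR1 are lowest in ibh1, while for IRT3 and JAL23 the lowest value and for PIF4 and DRM2 the highest value is that of Col.

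Jasmonate, the lipid hormone of wounding and defence against insects, acts in part against salicylate. Of 20 tested jasmonate synthesis and output genes 4 rose and 1 fell, and 17 lay above zero with a median log2 of 0.37. JAL23, a jacalin-related lectin gene, was at 17.1 FPKM in ibh1 against 5.27 FPKM in Col (log2 1.70 ± 0.28, authors' q 2.50e-07). VSP2, a vegetative storage protein with phosphatase activity toward insects, was at 59.8 FPKM in ibh1 against 30.7 FPKM in Col (log2 0.96 ± 0.15, authors' q 2.03e-08). AOC1, an allene oxide cyclase of the synthesis pathway, rose by 0.66 ± 0.21 on the log2 scale (authors' q 0.0467), and CORI3, a coronatine-induced lyase, rose by 0.42 ± 0.12 (authors' q 0.0217). The member that fell was TAT3, a tyrosine aminotransferase, with 2.24 FPKM in ibh1 against 8.02 FPKM in Col (log2 -1.84 ± 0.39, authors' q 0.000315). None of the 12 JAZ repressor genes, whose proteins hold the pathway in check, was called, and the 10 with a fold change all lay above zero. JAZ9 had 37.1 FPKM in ibh1 and 29.5 FPKM in Col (log2 0.33 ± 0.17, authors' q 0.316), and JAZ8 was listed at 0 in ibh1 with 3.01 FPKM in Col (authors' q 0.139). Across genotypes JAL23 was above Col in all 4 lines, at 17.1 FPKM in ibh1, 12.3 FPKM in the IBH1 overexpressor, 13.6 FPKM in the IBL1 overexpressor and 21.2 FPKM in the ibl1 mutant against 5.27 FPKM in Col. VSP2 was not, with 20.1 FPKM in the IBH1 overexpressor. JAL23 and CORI3 were called higher than Col in every line. CORI3 stood at 37.4 FPKM (ibh1), 41.8 FPKM (IBH1 overexpressor), 54.3 FPKM (IBL1 overexpressor) and 37.9 FPKM (ibl1) against 27.9 FPKM (Col). Since the lines share the Col libraries, a low Col level and a high level in ibh1 cannot be told apart for JAL23 and CORI3. AOC1, VSP2 and TAT3 were not called in the same direction in every line.

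Glucosinolates, the sulfur-rich defence compounds of the cabbage family, had the largest number of rising genes among the lists. Of 24 genes, all tested, 7 rose and 0 fell, and 22 lay above zero with a median log2 of 0.18. MYB28, the master factor of the methionine-derived branch, was at 66.2 FPKM in ibh1 against 46.4 FPKM in Col (log2 0.51 ± 0.10, authors' q 0.000145). Its pathway genes CYP79F1 and CYP79F2 rose by 0.43 ± 0.11 and 0.61 ± 0.16 on the log2 scale, and BCAT4, which starts chain elongation, by 0.32 ± 0.10. BCAT4 shares its locus with another gene in the authors' models, so its fragments may be split. In the tryptophan-derived branch CYP79B2 was at 75.5 FPKM in ibh1 against 48.1 FPKM in Col (log2 0.65 ± 0.11, authors' q 3.51e-06). CYP83B1, the next step, rose by 0.33 ± 0.09 and the sulfotransferase gene SOT16 by 0.49 ± 0.12. The myrosinase gene TGG1, whose enzyme splits the compounds on damage, had 1003 FPKM in ibh1 and 966 FPKM in Col (log2 0.06 ± 0.09) and was not called. Sulfur supply genes moved in both directions. APR1, the reductase of sulfate assimilation, rose to 68.0 FPKM in ibh1 against 48.1 FPKM in Col (log2 0.50 ± 0.12, authors' q 0.00291), and the root sulfate transporter gene SULTR1;2 to 73.3 FPKM in ibh1 against 51.2 FPKM in Col (log2 0.52 ± 0.08, authors' q 5.57e-09). BGLU28, a glucosidase gene of sulfur starvation, fell by 1.61 ± 0.43 on the log2 scale (authors' q 0.0122). Among 7 sulfur genes 1 rose and 1 fell, and SULTR1;2 is not in that list. In the IBL1 overexpressor CYP79F2, CYP79B2, CYP83B1, SOT16, APR1 and SULTR1;2 were also called higher than Col, while MYB28, CYP79F1 and BCAT4 were not. There CYP79B2, CYP83B1 and SOT16 had log2 values of 0.80 ± 0.10, 0.76 ± 0.07 and 0.82 ± 0.11. Of all these genes only APR1 was called higher in the IBH1 overexpressor, and none in the ibl1 mutant.

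The antenna genes of the photosystems fell together. These encode the chlorophyll-binding proteins that gather light, LHCB around photosystem II and LHCA around photosystem I. Of 18 genes, all tested, 12 fell and 0 rose, 17 lay below zero and the median log2 was -0.40. Their summed level was 62499.5 FPKM in ibh1 against 91205.5 FPKM in Col. The largest member, LHCB1.3, was at 15437 FPKM in ibh1 against 23514 FPKM in Col and was not called (log2 -0.61 ± 0.23, authors' q 0.151). LHCB1.4 was at 2374 FPKM in ibh1 against 4324 FPKM in Col (log2 -0.87 ± 0.10, authors' q listed as 0). LHCB1.2 was at 4904 FPKM in ibh1 against 8315 FPKM in Col (log2 -0.76 ± 0.12, authors' q 2.23e-08). The LHCB1 genes are near-identical copies and LHCB1.5, LHCB4.2 and LHCB6 share a locus with another gene, so single values among them are uncertain. Photosystem II members LHCB2.1 and LHCB2.2 fell by 0.45 ± 0.09 and 0.56 ± 0.09 on the log2 scale. In photosystem I, LHCA1 fell by 0.55 ± 0.10, LHCA2 by 0.37 ± 0.10 and LHCA3 by 0.31 ± 0.10. LHCB5, LHCB3 and LHCA4 were not called, with log2 values of -0.15 ± 0.11, -0.26 ± 0.10 and -0.28 ± 0.11. Only 3 of the 12 calls reached 1.5-fold. The same 12 genes were also called lower than Col in the IBH1 overexpressor, the IBL1 overexpressor and the ibl1 mutant. LHCA1, for example, had log2 values of -0.80 ± 0.09, -1.51 ± 0.08 and -0.89 ± 0.08 there, in that order. The lines share the Col libraries, so a high Col level and a low level in ibh1 cannot be told apart for these genes.

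Other photosynthesis lists had smaller called shares than the antenna list, of which 66.7% were called. The shares were 10.0% of Rubisco and Calvin cycle genes and 17.6% of chlorophyll genes. Of all tested genes 3.37% were called, and of those at 100 FPKM or more 16.6%. Of 10 Rubisco and Calvin cycle genes 1 rose, 0 fell and 8 lay above zero. RCA, the activase that keeps Rubisco working, was at 3427 FPKM in ibh1 against 3247 FPKM in Col (log2 0.08 ± 0.02, authors' q 0.00253). The carbonic anhydrase gene CA1 rose to 1461 FPKM in ibh1 against 1231 FPKM in Col (log2 0.25 ± 0.03, authors' q 7.76e-13). RBCS1A, a Rubisco small subunit gene with near-identical relatives, had 13603 FPKM in ibh1 and 14959 FPKM in Col (log2 -0.14 ± 0.15, authors' q 0.722). Of 17 chlorophyll synthesis and breakdown genes 3 fell and 0 rose. PORB, a light-dependent protochlorophyllide reductase gene, was at 506 FPKM in ibh1 against 677 FPKM in Col (log2 -0.42 ± 0.04, authors' q listed as 0). Its relative PORA, active in seedlings leaving darkness, was at 3.98 FPKM in ibh1 against 9.21 FPKM in Col (log2 -1.21 ± 0.34, authors' q 0.0171), and the methyltransferase gene CHLM fell by 0.17 ± 0.03 on the log2 scale. PORB and CHLM were also called lower than Col in each of the other lines, which share the Col libraries. For both genes a high Col level and a low level in ibh1 cannot be told apart. PORA was not called in the IBH1 overexpressor. For LHCB1.4 the other lines were also below Col. It was at 2374 FPKM in ibh1, 1853 FPKM in the IBH1 overexpressor, 1167 FPKM in the IBL1 overexpressor and 1926 FPKM in the ibl1 mutant against 4324 FPKM in Col, so ibh1 was the line nearest to Col for this gene.

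Most of the listed genes that darkness or sugar shortage turns on were lower in ibh1. Of 10 such genes, all tested, 6 fell and 0 rose, and 8 lay below zero with a median log2 of -0.39. DRM2, a dormancy- and auxin-associated gene, was at 86.9 FPKM in ibh1 against 262 FPKM in Col (log2 -1.59 ± 0.13, authors' q listed as 0). Its homologue DRM1 was at 181 FPKM in ibh1 against 353 FPKM in Col (log2 -0.97 ± 0.11, authors' q listed as 0). SEN1, a dark- and senescence-induced gene, was at 115 FPKM in ibh1 against 197 FPKM in Col (log2 -0.78 ± 0.10, authors' q 6.07e-13). DIN11, a dark-inducible oxygenase gene, fell further, to 2.19 FPKM in ibh1 against 7.49 FPKM in Col (log2 -1.77 ± 0.45, authors' q 0.00559). ASN1, the asparagine synthetase that stores nitrogen in the dark, fell by 0.40 ± 0.12 on the log2 scale and the exordium-like gene EXL2 by 0.37 ± 0.10. DIN2 pointed the other way without a call, with 1.83 FPKM in ibh1 and 0.476 FPKM in Col (log2 1.94 ± 0.78, authors' q 0.178). DRM2 was at 86.9 FPKM in ibh1, 237 FPKM in the IBH1 overexpressor, 60.5 FPKM in the IBL1 overexpressor and 104 FPKM in the ibl1 mutant against 262 FPKM in Col. The IBH1 overexpressor lay nearest to Col for this gene. It lay farthest from Col for ASN1, at 6.21 FPKM against 44.5 FPKM in Col. There ibh1 had 33.6 FPKM, the IBL1 overexpressor 15.6 FPKM and the ibl1 mutant 10.5 FPKM. DRM1, SEN1 and ASN1 were called lower than Col in every line, while DRM2, DIN11 and EXL2 were not. The lines share the Col libraries, so for those called in every line a high Col level and a low level in ibh1 cannot be told apart.

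In the growth network around IBH1 the called genes were PIF4, PIF5 and HAT3, and most PIF and shade targets lay below zero. Of 6 PIF genes 2 fell, PIF4 and its close relative PIF5, which had 47.1 FPKM in ibh1 and 56.2 FPKM in Col (log2 -0.26 ± 0.07, authors' q 0.00856). Of 10 PIF and shade target genes 1 fell, and 9 of 10 lay below zero with a median log2 of -0.52. The called member was HAT3, a homeodomain-leucine zipper gene of shade growth, with 8.48 FPKM in ibh1 and 15.3 FPKM in Col (log2 -0.85 ± 0.26, authors' q 0.0335). The auxin-response target IAA29 had 1.42 FPKM in ibh1 and 4.92 FPKM in Col but was not called (log2 -1.79 ± 0.64, authors' q 0.102). Among the tested partners of IBH1, 0 of 3 PRE genes (PRE3 0.10 ± 0.34) and 0 of 8 growth-promoting bHLH genes (HBI1 -0.05 ± 0.12, CIB2 0.70 ± 0.23 with an authors' q of 0.0635) were called. PRE2 and PRE4 were not analysed here. The same held for the related growth-restraining helix-loop-helix genes, with 0 of 8 called (PAR1 -0.67 ± 0.27, authors' q 0.170). PIF5, like PIF4, was also called lower than Col in each of the other lines, which share the Col libraries. Among those lines HAT3 was called only in the IBL1 overexpressor.

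Hormone pathways of elongation showed scattered calls. Of 12 brassinosteroid synthesis and inactivation genes 1 fell, CPD, a cytochrome P450 gene under feedback control, with 109 FPKM in ibh1 and 139 FPKM in Col (log2 -0.35 ± 0.10, authors' q 0.0159). Of 10 tested signalling genes 1 rose, the receptor homologue BRL1, with 3.96 FPKM in ibh1 and 2.00 FPKM in Col (log2 0.99 ± 0.29, authors' q 0.0303). The receptor gene BRI1 had 35.8 FPKM in ibh1 and 38.3 FPKM in Col, and the factors BES1 and BZR1 had log2 values of -0.03 ± 0.05 and 0.07 ± 0.14, none of them called. For auxin, GH3.5 and GH3.6, which attach amino acids to the hormone, fell by 0.76 ± 0.18 and 0.72 ± 0.14 on the log2 scale (2 of 8 GH3 genes). The repressor gene IAA7 fell by 0.25 ± 0.07 (1 of 29 Aux/IAA genes), and 0 of 65 tested SAUR genes were called (SAUR78 0.29 ± 0.15). Of 12 gibberellin metabolism and signalling genes 0 were called (RGA -0.10 ± 0.12). The gibberellin-regulated GASA genes split, with GASA6 rising to 418 FPKM in ibh1 against 305 FPKM in Col (log2 0.45 ± 0.10, authors' q 0.000960) and GASA14 falling to 163 FPKM in ibh1 against 263 FPKM in Col (log2 -0.69 ± 0.10, authors' q 5.41e-10). All 10 type-A ARR genes, primary cytokinin response genes, lay above zero with a median log2 of 0.47, but 0 were called (ARR5 0.90 ± 0.33, authors' q 0.117). Of 21 tested ethylene response factors 0 were called, with 15 below zero (ERF4 -0.49 ± 0.20). CPD, GH3.6 and GASA14 were also called lower than Col in the IBH1 overexpressor, the IBL1 overexpressor and the ibl1 mutant. GASA14 had log2 values of -0.74 ± 0.09, -0.44 ± 0.08 and -0.65 ± 0.08 there, in that order. For these genes a high level in the shared Col libraries and a low level in ibh1 cannot be told apart. BRL1, GH3.5, IAA7 and GASA6 were not called in the same direction in every line.

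Cell wall genes moved in small numbers. Of 26 tested expansins 2 fell: EXPA16, with 8.35 FPKM in ibh1 against 19.4 FPKM in Col (log2 -1.22 ± 0.28, authors' q 0.00136), and EXPA3, with 38.1 FPKM in ibh1 against 54.7 FPKM in Col (log2 -0.52 ± 0.15, authors' q 0.0223). Expansins loosen the wall, and the most abundant one, EXPA1, had 284 FPKM in ibh1 and 246 FPKM in Col without a call (log2 0.21 ± 0.09, authors' q 0.234). XTH9 fell by 0.39 ± 0.10 on the log2 scale, the 1 call among 29 tested xyloglucan-remodelling genes. All 8 tested cellulose synthase genes lay above zero by 0.07 to 0.45 and 0 were called. GH9B13, an endoglucanase-family gene, rose to 84.7 FPKM in ibh1 against 50.7 FPKM in Col (log2 0.74 ± 0.11, authors' q 1.84e-08). Of 15 tested fasciclin-like arabinogalactan genes FLA7 rose (0.42 ± 0.12) and FLA8 fell (-0.31 ± 0.10), and of 29 tested aquaporins 3 fell, TIP2;1, TIP1;2 and PIP1;3, by 0.39 ± 0.09, 0.34 ± 0.09 and 0.32 ± 0.09 on the log2 scale. FLA8, TIP2;1 and TIP1;2 were also called lower than Col in each of the other lines, which share the Col libraries. EXPA16, EXPA3, XTH9, GH9B13, FLA7 and PIP1;3 were not called in the same direction in every line.

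**Figure D5:**
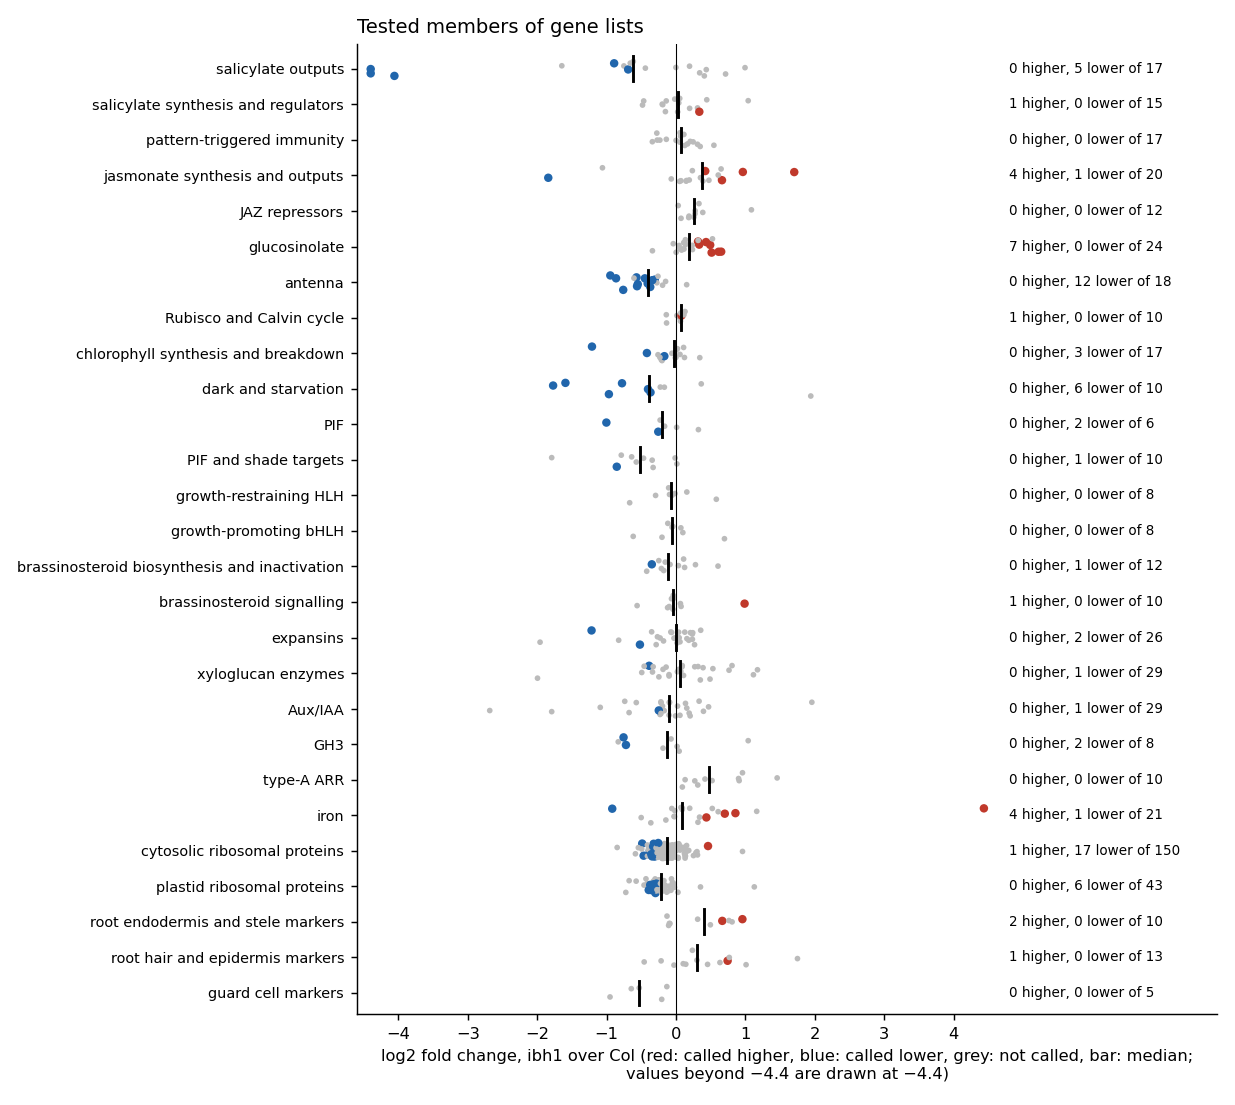
Log2 fold change of ibh1 over Col (horizontal axis) of every tested member of 27 gene lists (rows), with called members in colour, the list median as a black bar, and PR1 and PCR1 drawn at the left edge. The antenna, dark and starvation and plastid ribosomal lists lie mostly below zero and the glucosinolate, jasmonate and JAZ lists mostly above it.

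IRT3 (AT1G60960, chromosome 1, 22445310 to 22447214, minus strand, 4 exons), a ZIP-family transporter of zinc and iron, had the largest rise with a fold change among the called genes. It was at 11.9 FPKM in ibh1 against 0.551 FPKM in Col, 21.6-fold higher (log2 4.44 ± 0.73, authors' q 4.71e-07). The other lines were like ibh1, with 17.0 FPKM in the IBH1 overexpressor, 18.0 FPKM in the IBL1 overexpressor and 11.8 FPKM in the ibl1 mutant. The Col value thus stands apart from all 4 lines, and since each comparison uses that value, a low Col level and a high level in ibh1 cannot be told apart. Of 21 iron genes, all tested, 4 rose and 1 fell. Besides IRT3 these were the ferric reductase gene FRO2, with 23.7 FPKM in ibh1 against 14.6 FPKM in Col (log2 0.70 ± 0.16, authors' q 0.00124), the proton pump gene AHA2, with 347 FPKM in ibh1 against 256 FPKM in Col (log2 0.44 ± 0.09, authors' q 7.18e-05), and NAS4, whose enzyme makes the metal chelator nicotianamine, with 21.6 FPKM in ibh1 against 11.96 FPKM in Col (log2 0.86 ± 0.25, authors' q 0.0227). FRO2 and AHA2 serve iron uptake at the root surface. The main iron transporter gene IRT1 had 84.2 FPKM in ibh1 and 66.6 FPKM in Col and was not called (log2 0.34 ± 0.11, authors' q 0.0664). NAS4 was, like IRT3, called higher than Col in every line. It had 29.6 FPKM in the IBH1 overexpressor, 22.4 FPKM in the IBL1 overexpressor and 21.9 FPKM in the ibl1 mutant. FRO2 and AHA2 were not called higher in every line.

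The iron storage gene FER1, a ferritin induced by iron excess, fell to 114 FPKM in ibh1 against 216 FPKM in Col (log2 -0.92 ± 0.10, authors' q listed as 0), and it shares its locus with another gene in the authors' models. A vacuolar iron transporter family gene, AT1G76800, fell as well, to 3.05 FPKM in ibh1 against 9.47 FPKM in Col (log2 -1.63 ± 0.46, authors' q 0.0186). FER1 was also called lower than Col in each of the other lines, which share the Col libraries. It had 75.5 FPKM in the IBH1 overexpressor, 158 FPKM in the IBL1 overexpressor and 83.9 FPKM in the ibl1 mutant. Among those lines AT1G76800 was called only in the IBL1 overexpressor. The regulators BHLH38 and BHLH39 were not called and pointed in opposite directions (0.32 ± 0.23 and -0.50 ± 0.28). In the list of zinc-deficiency genes, put together after IRT3 had been seen, 2 of 11 tested members rose, IRT3 and NAS4 again. The others of that list, ZIP3, ZIP4 and ZIP9 among them, had log2 values of 0.23 ± 0.30, 0.13 ± 0.30 and -0.58 ± 0.83 and were not called. IRT3 and NAS4 are thus the whole of the called overlap of both lists, and the promoter of NAS4 printed above holds no TGTCGACA while that of IRT3 does.

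For other nutrients, the dual-affinity nitrate transporter gene NRT1.1 rose to 132 FPKM in ibh1 against 91.8 FPKM in Col (log2 0.53 ± 0.10, authors' q 1.16e-05), while the nitrate reductase gene NIA1 fell by 0.30 ± 0.09 on the log2 scale (1 higher and 1 lower of 5). PHO1, which loads phosphate into the xylem, rose by 0.48 ± 0.12 and was the 1 call among 15 phosphate starvation genes. RFNR2, a ferredoxin reductase gene of roots, rose to 200 FPKM in ibh1 against 144 FPKM in Col (log2 0.47 ± 0.07, authors' q 3.19e-09). MS2, a methionine synthase gene, rose to 145 FPKM in ibh1 against 111 FPKM in Col (log2 0.39 ± 0.04, authors' q listed as 0). NRT1.1, PHO1, RFNR2 and MS2 were also called higher than Col in the IBL1 overexpressor. Their log2 values there were 0.54 ± 0.08, 0.32 ± 0.10, 0.47 ± 0.06 and 0.43 ± 0.04, in that order. None of them was called higher in the IBH1 overexpressor or the ibl1 mutant, and all lines share the Col libraries.

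Many of these transporter genes are root-expressed, and markers of root cell types were read beside them. Of 10 endodermis and stele markers 2 rose: CASP1, a Casparian strip protein, with 63.9 FPKM in ibh1 against 40.3 FPKM in Col (log2 0.67 ± 0.17, authors' q 0.00819), and GSO1, a receptor kinase of the same barrier, with 4.83 FPKM in ibh1 against 2.49 FPKM in Col (log2 0.96 ± 0.26, authors' q 0.0157). In all, 6 of the 10 lay above zero and 4 below. CASP1 and GSO1 each share a locus with another gene. The list summed to 198 FPKM in ibh1 and 167 FPKM in Col, and SCR and SHR, defining factors of the layer, were not called (-0.11 ± 0.15 and -0.13 ± 0.19). Of 13 root hair and epidermis markers 1 rose, RHS19, with 37.7 FPKM in ibh1 and 22.5 FPKM in Col (log2 0.74 ± 0.18, authors' q 0.00393), and 10 of 13 lay above zero. That list summed to 191 FPKM in ibh1 and 154 FPKM in Col. Among the other lines RHS19 was called only in the IBH1 overexpressor. In whole seedlings, fewer cells of a type and less RNA per cell cannot be told apart, and the part of root content in the nutrient, antenna and other results was not tested. The 5 guard cell markers all lay below zero, with a median log2 of -0.53, sums of 31.2 FPKM in ibh1 and 44.8 FPKM in Col, and 0 called (SPCH -0.95 ± 0.32, authors' q 0.0736). Seed storage genes summed to 0.438 FPKM in ibh1 and 0.0618 FPKM in Col, with 6 of 7 listed at 0 in each group. Of 3 shoot meristem markers WUS was listed at 0 in both groups, STM had 5.89 FPKM in ibh1 and 4.65 FPKM in Col, CLV3 had 2.04 FPKM in ibh1 and was listed at 0 in Col, and 0 were called. Leaf and root genes were thus present, and seed storage genes at or near 0, in libraries labelled as whole seedlings.

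Ribosomal protein genes lay slightly lower in ibh1. Of 150 tested cytosolic members 17 fell, 1 rose and 120 lay below zero, with a median log2 of -0.13 and sums of 72199 FPKM in ibh1 against 87729 FPKM in Col. AT5G18380, of the S5 domain 2-like family, had 1061 FPKM in ibh1 and 1268 FPKM in Col (log2 -0.26 ± 0.04, authors' q 3.48e-07). AT3G60245, a zinc-binding ribosomal protein, had 1106 FPKM in ibh1 and 1438 FPKM in Col (log2 -0.38 ± 0.09, authors' q 0.00141). The member that rose was AT1G25260, of the L10 family, with 91.8 FPKM in ibh1 against 66.7 FPKM in Col (log2 0.46 ± 0.13, authors' q 0.0236). Of 43 tested plastid ribosomal genes 6 fell, 0 rose and 40 lay below zero, with a median log2 of -0.22, among them PSRP6 (-0.39 ± 0.10) and RPL15 (-0.35 ± 0.09). A further 131 ribosomal genes whose class the annotation text leaves undecided held 8 that fell and 0 that rose, with the largest statistic for RPL4 (-0.37 ± 0.04). RPL4 was also called lower than Col in each of the other lines, which share the Col libraries. The classes rest on annotation text, so single members may stand in the wrong one. These lists are made of abundant genes, and among all tested genes at 100 FPKM or more 13.8% were called lower. None of the 17 falls of the cytosolic list reached 1.5-fold.

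Of 109 tested chloroplast-encoded genes 5 fell and 0 rose. ATCG00960 had 3539 FPKM in ibh1 and 10024 FPKM in Col (log2 -1.502 ± 0.27, authors' q 5.87e-06), and ATCG00920 had 5908 FPKM in ibh1 and 9249 FPKM in Col (log2 -0.65 ± 0.15, authors' q 0.00176). Both have a copy in the other inverted repeat of the plastid genome, ATCG01170 and ATCG01210, with the same values, so these 4 calls are 2 observations. The fifth was ATCG00280 (-0.38 ± 0.10), which was also called lower than Col in each of the other lines, which share the Col libraries. Of 79 tested mitochondrion-encoded genes 2 fell, ATMG00020 and ATMG00030, by 0.44 ± 0.09 and 0.61 ± 0.12 on the log2 scale. The libraries were made from poly(A)-selected RNA, and organelle transcripts mostly lack stable poly(A) tails, so these levels reflect what passed that selection.

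Among clock genes the morning-expressed LHY and RVE8 rose and the day-phase repressor PRR7 fell, 3 calls of 16. LHY had 68.2 FPKM in ibh1 and 56.6 FPKM in Col (log2 0.27 ± 0.06, authors' q 0.000509), RVE8 had 45.2 FPKM in ibh1 and 32.2 FPKM in Col (log2 0.49 ± 0.12, authors' q 0.00243), and PRR7 had 12.1 FPKM in ibh1 and 17.2 FPKM in Col (log2 -0.51 ± 0.16, authors' q 0.0480). The time of day of harvest is not given in the sources used here. SPA1, a partner of the COP1 repressor of light responses, rose by 0.53 ± 0.14 on the log2 scale, the 1 call among 14 photoreceptor and light signalling genes. KIN2, a cold- and abscisic acid-induced gene, fell to 131 FPKM in ibh1 against 197 FPKM in Col (log2 -0.59 ± 0.15, authors' q 0.00753), the 1 call among 14 tested abscisic acid and cold genes, of which 12 lay below zero with a median log2 of -0.61. WRKY16, the gene of an immune receptor with a WRKY domain, rose by 0.61 ± 0.16, the 1 call among 62 tested WRKY genes. None of 10 flavonoid, 5 heat shock and 5 flowering genes tested was called (CHS 0.16 ± 0.09, HSP101 -0.48 ± 0.23, SVP -0.28 ± 0.14). Of 5 reference genes UBQ10, which encodes polyubiquitin, fell, with 1034 FPKM in ibh1 and 1238 FPKM in Col (log2 -0.26 ± 0.02, authors' q listed as 0). ACT2, ACT7, GAPC1 and PP2AA3 lay between -0.04 and 0.08 and were not called. UBQ10 and PRR7 were also called lower than Col in each of the other lines, which share the Col libraries. For both genes a high Col level and a low level in ibh1 cannot be told apart. LHY, RVE8, SPA1, KIN2 and WRKY16 were not called in the same direction in every line.

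Where the authors' Cuffdiff q-value called 0 members of a list, the unadjusted p-value lay below 0.05 for some of them, as it did for 3227 of the 20967 tested genes in all. Such members numbered 11 of 65 SAUR genes, 4 of 12 JAZ genes, 3 of 10 type-A ARR genes, 3 of 21 ethylene response factors, 3 of 5 heat shock genes, 2 of 8 cellulose synthase genes and 2 of 5 guard cell markers. There was 1 each among the growth-promoting bHLH, growth-restraining, gibberellin, flowering and shoot meristem genes. The PRE, camalexin, flavonoid and pattern-triggered immunity lists held 0.

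Some of the firmest changes were outside the lists. AT4G22505 and AT4G22485, in a cluster of lipid-transfer protein genes on chromosome 4, had 116 and 166 FPKM in ibh1 against 344 and 386 FPKM in Col (log2 -1.56 ± 0.09 and -1.22 ± 0.09, authors' q listed as 0 for both). The cluster was then looked at whole, after these values had been seen. Of the 10 genes listed between 11839160 and 11860208, 7 fell, with log2 values between -1.56 and -0.42, and 0 rose. The 7 lie side by side. They are AT4G22485, AT4G22490, AT4G22505, AT4G22510, AT4G22513, AT4G22517 and AT4G22520, and such tandem copies may share fragments, as 3 of them share a locus in the authors' models. The genes flanking the run, AT4G22470 and AT4G22530, were not called (log2 -0.08 ± 0.40 and -0.38 ± 0.22). AT4G22505 was highest in Col, with 116 FPKM in ibh1, 172 FPKM in the IBH1 overexpressor, 169 FPKM in the IBL1 overexpressor and 174 FPKM in the ibl1 mutant against 344 FPKM in Col. GRP3S, a glycine-rich wall protein gene, fell to 1142 FPKM in ibh1 against 2030 FPKM in Col (log2 -0.83 ± 0.06, authors' q listed as 0), while GRP9 of the same broad class rose to 771 FPKM in ibh1 against 608 FPKM in Col (log2 0.34 ± 0.04, authors' q listed as 0). AT3G10020, a plant protein of unstated function, fell to 64.8 FPKM in ibh1 against 167 FPKM in Col (log2 -1.36 ± 0.11, authors' q listed as 0). AT4G22505, AT4G22485 and AT3G10020 were also called lower than Col in each of the other lines, which share the Col libraries.

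Among the largest rises of genes with at least 1 FPKM in both groups, few have a known role. AT4G19430, an uncharacterized protein gene, was at 13.9 FPKM in ibh1 against 3.44 FPKM in Col (log2 2.01 ± 0.54, authors' q 0.0122). AT3G52790, with a LysM domain that in other proteins binds sugars of cell walls, was at 18.8 FPKM in ibh1 against 5.32 FPKM in Col (log2 1.82 ± 0.58, authors' q 0.0492). AT3G02468, at 29.3 FPKM in ibh1 against 8.16 FPKM in Col (log2 1.84 ± 0.29, authors' q 5.03e-08), shares its locus with another gene. The others of the leading 12 besides JAL23 rose by 1.27 to 1.67 on the log2 scale: the transporter genes AT3G45680 and AT5G45275 of the major facilitator superfamily, AT1G72645, the ribosome biogenesis gene AT5G08600, the pentatricopeptide repeat gene AT1G64580, the subtilase gene AT5G59130, the oxygenase gene AT1G52820 and the hydrolase gene AT4G36610. LAC12, a laccase of wall lignin, rose as well, outside that set, with 2.38 FPKM in ibh1 and 0.330 FPKM in Col (log2 2.85 ± 0.90, authors' q 0.0479). Of the largest falls, AT4G04223, a non-coding RNA, was at 4.32 FPKM in ibh1 against 34.4 FPKM in Col (log2 -2.99 ± 0.58, authors' q 4.56e-05). The copper transport family gene AT5G52760 was at 1.22 FPKM in ibh1 against 7.85 FPKM in Col (log2 -2.69 ± 0.84, authors' q 0.0458). AT4G04223 had 33.7 FPKM in the ibl1 mutant, close to Col, and 13.4 and 6.28 FPKM in the IBH1 and IBL1 overexpressors.

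Of 480 tested genes listed at 0 in one group, 8 were called, and for these no fold is given. MRD1 (AT1G53480), a gene first found lowered in a methionine over-accumulating mutant, was listed at 0 in ibh1 with 49.1 FPKM in Col (authors' q 1.02e-25). It was also listed at 0 in the ibl1 mutant and had 0.00583 FPKM in the IBL1 overexpressor, while the IBH1 overexpressor had 46.7 FPKM, so the values of 3 lines stand apart from those of the other line and Col. MRD1 shares its locus with HEI10, a RING protein gene of meiotic crossovers, which had 2.01 FPKM in ibh1, 6.42 FPKM in the IBH1 overexpressor, 1.87 FPKM in the IBL1 overexpressor, 0.865 FPKM in the ibl1 mutant and 6.51 FPKM in Col (log2 of ibh1 over Col -1.69 ± 0.36, authors' q 0.000417). The same lines were low for both genes of this locus. AT1G65870, a dirigent-like gene, and AT4G13505, a non-coding RNA, were the other 2 listed at 0 in ibh1, with 5.34 and 3.15 FPKM in Col. AT4G13505 was also listed at 0 and called in each of the other lines, so only Col had a value above 0. For it a high Col level and a low level in ibh1 cannot be told apart. Listed at 0 in Col were AT4G37409 (6.25 FPKM in ibh1), AT1G58420 (3.99 FPKM in ibh1), AT5G35935 (3.77 FPKM in ibh1), GRIK1 (2.69 FPKM in ibh1) and AT1G68700 (2.62 FPKM in ibh1). AT4G13505, AT4G37409, GRIK1 and AT1G68700 share a locus with another gene, and an exact 0 from the authors' software can be an estimate that assigned all fragments to the other gene. Genes that share a locus were not called more often than others, 3.17% of 3156 against 3.41% of genes alone at their locus.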

How the data were processed

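RNA of whole seedlings, 2 libraries per genotype, was selected for poly(A) and sequenced, per the labels' protocols; a protocol text there speaks of a larger number of repeats. CASAVA 1.8.2, TopHat 1.4.1, Cuffdiff and the TAIR10 build are named in the submitters' processing notes. The sources used here give no Cuffdiff version, scaling, gene models or strand setting. Per the file headers, the authors deposited for each gene an FPKM value per group and, for the comparison, its log2 fold change, statistic (a score), p-value and q-value.

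The log2 fold change deposited by the authors is Col over ibh1, so its sign was turned. The standard error is that value divided by the statistic. Checked on the values, a two-sided normal p of the statistic lay within 2.81e-06 of the deposited p-value, and Benjamini-Hochberg adjustment of the tested genes within 2.39e-06 of the deposited q-value. No test was refitted, because the table holds no value per library, and the p-values may measure technical spread only. Depth is unknown, so no interval from counts is given. A further 12988 genes had too few fragments for a test by the authors' status, 56 failed and 36 had low data.

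Named genes are IBH1, IBL1, the 12 largest rises and falls at 1 FPKM or more in both groups, the 6 highest and lowest statistics beyond those, called list members, called neighbours of IBH1, and up to 3 abundant members of lists without a call. Called genes under 1 FPKM in one group, the lipid-transfer cluster and some uncalled list members were named after their values were seen. The 54 gene lists hold 1380 genes, and 6 IDs were dropped whose annotated names differ. Members and lists were chosen with earlier results of these data known. Symbols, promoters and exon counts come from RefSeq (TAIR10.1), which holds 31294 of the IDs (91.9%) but names no IBL1, for which AT4G30410 was used from general knowledge. Alternatives were a centred scale, a filter at 1 FPKM, stricter thresholds and pseudocounts; the centred calls were checked on simulated data. Work was done in Python 3.11.15 with pandas 2.3.3, numpy 2.4.6, scipy 1.17.1 and matplotlib 3.10.9. Some items are not reported here.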

Additional observations from a re-analysis of the deposited data

How the results depend on the processing

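No paired analysis was possible because the deposited table holds 1 value per genotype, which also means that no library could be left out. The 707 calls, 280 higher and 427 lower, became 334 (120 and 214) at a q below 0.01, 145 (41 and 104) by Bonferroni adjustment and 277 (141 and 136) with a change of at least 1.5-fold, where genes at 0 in a group count as changed. Centring gave 718 calls, of which 674 are shared with the 707, and the share called higher was 34.4% against 39.6%. The filter at 1 FPKM gave 709. The 12 antenna falls became 7 by Bonferroni and 3 at 1.5-fold. Of the cytosolic ribosomal genes, the 1 rise became 0 under each of these 3 stricter rules, and the 17 falls became 7 at a q below 0.01, 2 by Bonferroni and 0 at 1.5-fold. The 5 salicylate output falls became 3 under the filter and 3 by Bonferroni. Lists with a call numbered 37, and 17 by Bonferroni and 23 at 1.5-fold. Stricter rules lower such counts by construction. IBH1 stayed called under every alternative, with a log2 between -1.70 and -1.55, and PIF4 stayed the 1 called neighbour. Among the 157 named genes, of which IBL1 was not called, 3 calls were lost when centred, 62 at a q below 0.01, 107 by Bonferroni and 80 at 1.5-fold; with a pseudocount of 1, 18 values moved by more than their standard error. No direction reversed in these runs. A low gene needs a large change to be called: 0.139% of genes under 1 FPKM were called, against 16.6% at 100 FPKM or more.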
